A study of Homo sapiens with 8 samples.

Results

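The AP-1 family is a group of basic leucine zipper transcription factors. The 8 genes described here are its JUN genes (JUN, JUNB, JUND), its FOS genes (FOS, FOSB, FOSL1, FOSL2) and ATF3, a related factor that pairs with JUN proteins. They were chosen by gene symbol from 23735 genes, with earlier results of these data known, as were the gene lists used below. Counts of members and of listed genes set beside those of all genes are therefore descriptions. A symbol with several transcripts is represented by its most highly counted one. All 8 were found and all 8 passed the filter on low counts that left 15670 genes for testing.

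AP-1 proteins bind DNA as pairs held together by the leucine zipper. JUN proteins can pair with each other or with FOS proteins, whereas FOS proteins need a JUN partner. Growth factor and stress signals, carried by the ERK, JNK and p38 kinases, raise several of these genes within minutes to hours, and FOS is the textbook immediate early gene. FOSL1, also called FRA1, is a lasting readout of ERK activity in many carcinomas. ATF3 is induced by DNA damage, p53 and the integrated stress response.

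Total RNA of HCT-116, an established colorectal cancer cell line with wild-type p53, was sequenced after rRNA depletion. Vehicle cells received DMSO for 12 h and, after a wash, DMSO for 4 h. 5-FU cells received 40 µM 5-fluorouracil, an antimetabolite that blocks thymidylate synthesis, for 12 h and then DMSO for 4 h. 3-MB-PP1 cells received DMSO for 12 h and then 2.5 µM 3-MB-PP1, a bulky ATP analogue that inhibits kinases engineered to accept it, for 4 h, and cells given both drugs received 5-FU for 12 h and then 3-MB-PP1 for 4 h. The series title concerns Cdk7 inhibitors and p53, but the labels name no engineered kinase allele in these cells, and no wild-type cells given 3-MB-PP1 were among the groups. Each of the 4 groups held 2 libraries, with 10583906 to 50518205 gene counts each. The labels do not say whether replicates were separate cultures, so p-values measure the spread between these libraries, which may be technical. The 5 epithelial markers sought (EPCAM, CDH1, KRT8, KRT18, KRT19) summed to 2700 to 4834 CPM per library. The 4 leukocyte markers summed to 0.594 to 1.31 CPM, the 4 endothelial markers to 6.54 to 11.4 and the 5 fibroblast markers to 12.2 to 20.1. DCN, LUM and COL1A2 of fibroblasts and CDH5 of endothelium had no count in any library. These marker levels are counts over the library total, without TMM. With 5-FU 3 of the 5 epithelial markers (KRT8, KRT18, KRT19) were called higher and 1 (EPCAM) lower, and COL1A1, the 1 tested fibroblast marker, was called higher. With 3-MB-PP1 alone KRT18 was called higher and KRT19 lower, and of 2 tested endothelial markers KDR was called higher. After 5-FU, 3-MB-PP1 left EPCAM and KDR higher and KRT19 lower. Of all tested genes 21.3% were called higher and 22.7% lower with 5-FU, and 11.6% and 16.9% with 3-MB-PP1 alone. With 3-MB-PP1 after 5-FU these shares were 15.7% and 17.3%. The part of these markers in the results below was not tested.

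Promoters of 4 members are shown because these genes moved in different ways: JUN and FOSL2 rose with 5-FU, whereas FOS and JUND did not pass the test with 5-FU and went opposite ways with 3-MB-PP1. RefSeq windows on GRCh38.p14, from 250 bases before to 50 bases after the start site, were matched by symbol for 7 of the 8 members. FOSL1 had no entry. The 2 windows listed for ATF3 lie at separate starts, were not matched to its kept transcript and are not printed. JUN lies on the minus strand at chr1:58783998-58784297, FOSL2 on the plus strand at chr2:28392608-28392907, FOS on the plus strand at chr14:75278578-75278877 and JUND on the minus strand at chr19:18281573-18281872. Sequences run 5′ to 3′ along the gene, and capitals mark matches on either strand to TGACTCA (the TPA response element bound by AP-1), TGACGTCA (the cAMP response element), TGACATCA (the variant known from the JUN promoter) and TGACG, which also lies inside TGACGTCA.
JUN: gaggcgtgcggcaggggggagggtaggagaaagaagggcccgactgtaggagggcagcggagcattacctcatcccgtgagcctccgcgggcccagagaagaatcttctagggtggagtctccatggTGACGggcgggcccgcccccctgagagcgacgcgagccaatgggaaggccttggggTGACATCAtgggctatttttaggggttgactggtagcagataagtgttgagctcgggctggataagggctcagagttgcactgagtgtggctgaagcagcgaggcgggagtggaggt
FOSL2: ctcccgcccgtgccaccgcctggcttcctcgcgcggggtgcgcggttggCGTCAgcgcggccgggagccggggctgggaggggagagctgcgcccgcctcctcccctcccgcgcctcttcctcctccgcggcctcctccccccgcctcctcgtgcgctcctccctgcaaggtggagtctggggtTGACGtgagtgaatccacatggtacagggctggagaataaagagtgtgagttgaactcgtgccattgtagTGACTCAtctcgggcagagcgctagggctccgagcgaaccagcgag
FOS: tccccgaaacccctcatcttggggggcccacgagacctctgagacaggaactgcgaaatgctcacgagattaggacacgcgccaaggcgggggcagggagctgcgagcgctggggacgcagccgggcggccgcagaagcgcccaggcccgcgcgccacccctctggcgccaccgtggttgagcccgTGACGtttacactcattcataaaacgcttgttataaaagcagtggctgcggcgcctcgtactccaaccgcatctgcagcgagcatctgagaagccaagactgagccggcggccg
JUND: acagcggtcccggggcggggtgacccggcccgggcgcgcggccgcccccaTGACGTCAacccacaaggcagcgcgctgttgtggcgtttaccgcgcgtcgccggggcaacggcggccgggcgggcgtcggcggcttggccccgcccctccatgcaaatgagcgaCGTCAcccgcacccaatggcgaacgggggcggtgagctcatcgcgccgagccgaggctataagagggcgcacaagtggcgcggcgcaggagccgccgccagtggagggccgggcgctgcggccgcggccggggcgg

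JUN held TGACATCA at position -67 from its start site (negative positions lie before it) and FOSL2 held TGACTCA at position 4. JUND held TGACGTCA at position -200. FOS held none of these longer motifs and had TGACG at position -64. JUNB and FOSB, which were also called higher with 5-FU, held none of them either. Their windows, not printed, had TGACG at positions -137 and -60. The ATF3 window at chr1:212565157-212565456 held TGACATCA at position -123, and its other window held no marked motif. Of all 35116 windows of the same length in the RefSeq table, 4.95% held TGACTCA, 1.85% held TGACGTCA, 2.61% held TGACATCA and 24.6% held TGACG. These are matches of letters, with no measurement of binding, and a link between motifs and drug responses was not tested.

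In vehicle cells the pool was dominated by FOSL1 and JUND. Levels between genes are compared by the deposited RPKM, which is scaled by transcript length. FOSL1 stood at 70.0 and 87.1 RPKM in the 2 vehicle libraries, above 93.8% of tested genes by its mean. JUND followed at 35.9 and 42.6, JUNB at 19.9 and 23.6, FOSL2 at 11.8 and 13.2 and ATF3 at 5.04 and 5.77 RPKM. FOS (2.44 and 2.83) and JUN (2.45 and 2.71) overlapped each other in level, and FOSB was lowest at 0.67 and 0.57. Every other pair of neighbours in that order was separated in both vehicle libraries. The textbook pair of FOS and JUN was thus among the low members here.

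**Figure D1:**
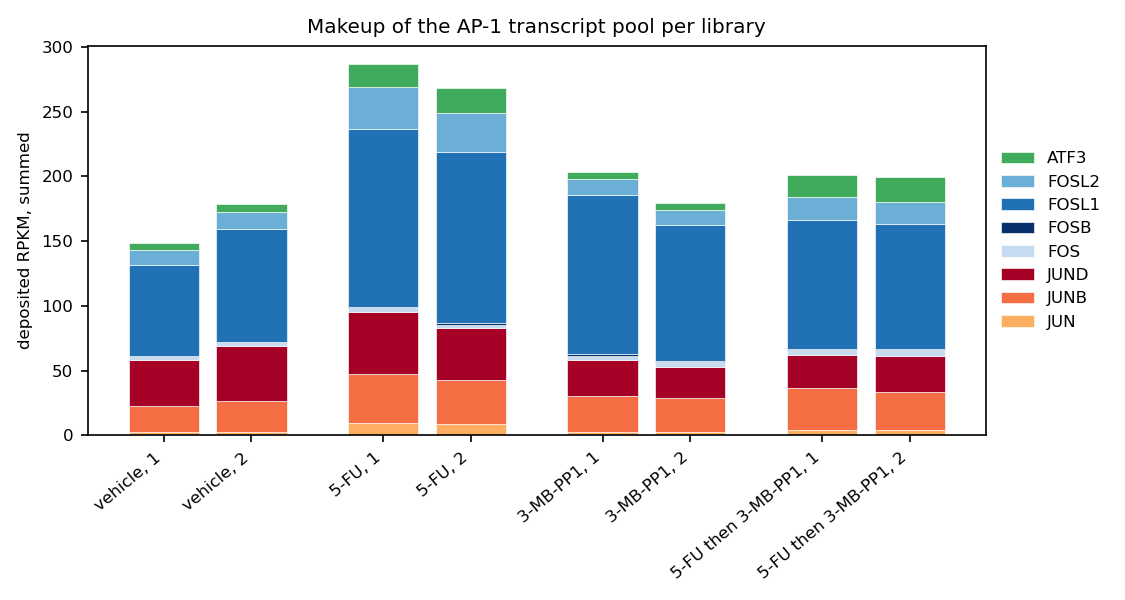
Deposited RPKM of the 8 AP-1 genes, stacked for each of the 8 libraries (replicates 1 and 2 of each treatment). The sum reaches 268 and 287 RPKM in the 5-FU libraries and lies between 148 and 203 in the other 6, and FOSL1 is the tallest block in every bar.

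The makeup of the pool differed between treatments. FOSL1 made up 47.2% and 48.8% of the summed RPKM of the 8 genes in vehicle libraries, 47.8% and 49.3% after 5-FU, 60.8% and 58.6% after 3-MB-PP1 and 49.5% and 48.5% after both drugs. Its share was thus highest in the 3-MB-PP1 libraries, which did not overlap the others. JUND made up 61.7% and 61.8% of the JUN genes' RPKM in vehicle libraries and 41.5% to 50.4% in the 6 treated libraries. JUNB, a JUN relative of weaker transactivation, made up 34.1% and 34.3% in vehicle libraries and 39.9% to 51.7% in treated ones. JUN, the strongest activator of the 3, went from 4.2% and 3.9% to 9.7% and 10.4% after 5-FU and stood at 6.7% and 6.8% after both drugs. These shares are descriptions over 2 libraries a group, in which an exact permutation test could not pass. In bulk RNA, a change in the make-up of the cell population and a change in RNA per cell cannot be told apart.

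The comparison of 5-FU with vehicle asked how the AP-1 genes stood after 12 h of the antimetabolite followed by 4 h of DMSO. JUN, ATF3, FOSL2, FOSL1, JUNB and FOSB rose, and FOS and JUND did not pass. Levels between libraries are given as CPM, counts scaled to the library size after TMM, a correction for library makeup. The percentages called over all tested genes were 21.3% higher and 22.7% lower, against 6 and 0 of the 8 members, and the median log2 fold change was 0.73 over the members and 0.00305 over all tested genes. Calls here and below rest on edgeR's quasi-likelihood test with an adjusted p below 0.05. No member was lower at an unadjusted p under 0.05 either, and DESeq2 and limma-voom called 0 lower.

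Of the JUN genes, JUN stood at 8.32 and 9.21 CPM in vehicle libraries and at 30.5 and 28.8 after 5-FU. The 2 groups lay far apart, and the log2 fold change was 1.76 (SE 0.11, adjusted p = 1.31e-12). JUNB stood at 36.9 and 43.8 CPM in vehicle and 68.8 and 62.6 after 5-FU, a smaller rise without overlap (0.70, SE 0.08, adjusted p = 9.93e-08). JUND, often the constant member of the family, stood at 68.6 and 81.3 against 89.5 and 75.4 CPM, and these ranges overlapped (0.13, SE 0.09, adjusted p = 0.215). JUND passed when the 5-FU replicate 2 library was left out (0.25, adjusted p = 0.0420).

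Of the FOS genes, FOSL2, or FRA2, changed most: it stood at 48.1 and 53.6 CPM in vehicle and 129 and 121 after 5-FU (1.30, SE 0.07, adjusted p = 3.45e-14). FOSL1 stood at 119 and 148 CPM in vehicle and at 227 and 223 after 5-FU, so that the already most abundant member rose further (0.75, SE 0.08, adjusted p = 9.70e-09). FOSB rested on 29 to 68 counts per library in these 2 groups and stood at 2.57 and 2.21 against 3.75 and 4.08 CPM (0.71, SE 0.25, adjusted p = 0.0198). Its call ended under DESeq2 (adjusted p = 0.125) and also without vehicle replicate 2 (adjusted p = 0.133) or 5-FU replicate 2. FOS itself stood at 5.37 and 6.24 CPM in vehicle and 6.25 and 5.93 after 5-FU, on 69 to 99 counts per library (0.07, SE 0.18, adjusted p = 0.797). The ranges of FOS overlapped.

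ATF3 stood at 12.3 and 14.1 CPM in vehicle libraries and at 42.8 and 46.7 after 5-FU. The log2 change was 1.76 (SE 0.10, adjusted p = 1.32e-13), and the values of ATF3 and JUN both lay above 99.3% of all tested genes.

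**Figure D2:**
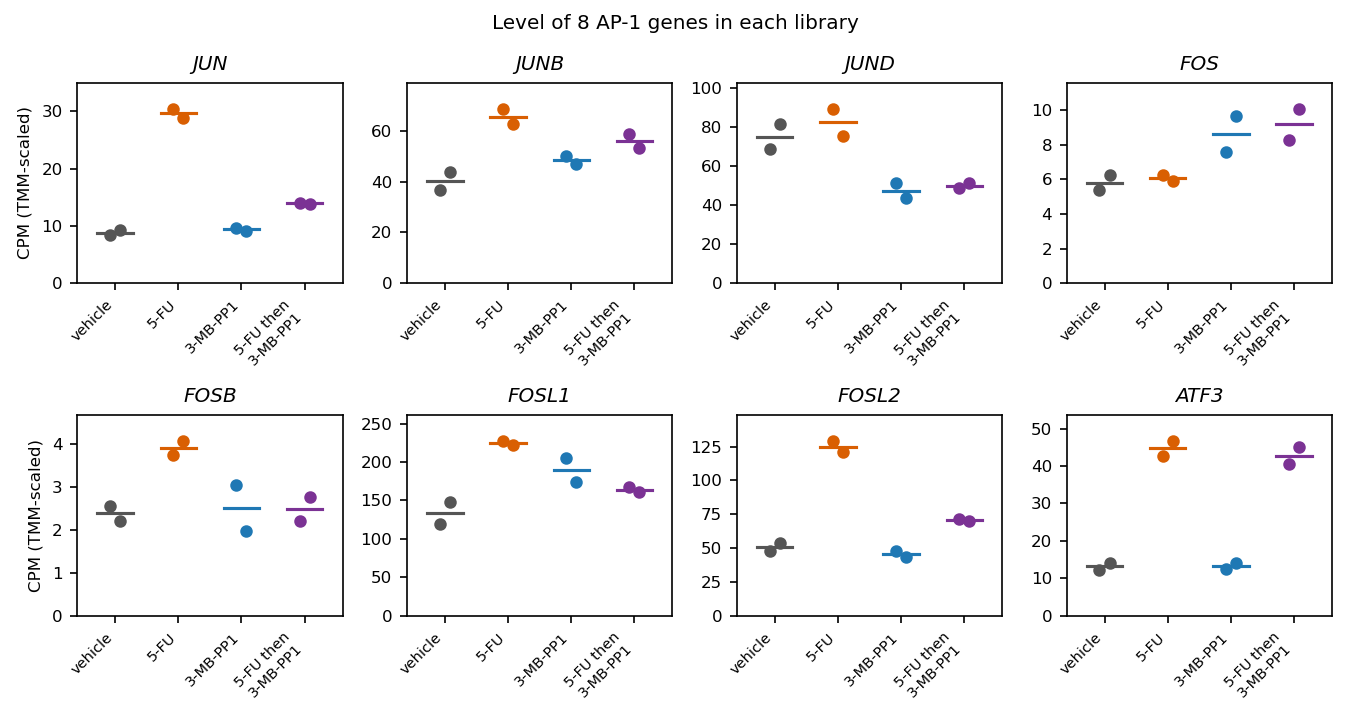
CPM of each AP-1 gene in every library (points) with the mean of the 2 libraries of a treatment (line), on axes that start at 0 and differ between genes. JUN falls from 30.5 and 28.8 CPM after 5-FU to 14.0 and 13.8 after both drugs, whereas ATF3 stays at 40.5 and 45.1.

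The comparison of 3-MB-PP1 with vehicle asked what the kinase inhibitor did to these genes by itself within 4 h. FOSL1, FOS and JUNB rose, JUND fell, and JUN, FOSL2, FOSB and ATF3 did not pass. Over all tested genes 11.6% were called higher and 16.9% lower, against 3 and 1 of the 8 members. The median log2 fold change was 0.16 over the members and -0.01 over all tested genes.

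JUND stood at 51.3 and 43.6 CPM after 3-MB-PP1, below both vehicle libraries (68.6 and 81.3), and fell on the log2 scale (-0.63, SE 0.09, adjusted p = 4.44e-06). FOSL1 stood at 205 and 174 CPM, above both vehicle libraries (119 and 148), a log2 change (0.51, SE 0.08, adjusted p = 1.32e-05). FOS stood at 7.60 and 9.68 CPM, above the vehicle libraries (0.49, SE 0.16, adjusted p = 0.0218). The FOS call ended under DESeq2 (adjusted p = 0.0958), without vehicle replicate 1 (0.200) and without 3-MB-PP1 replicate 2 (0.0844). JUNB stood at 50.1 and 46.8 CPM (0.28, SE 0.08, adjusted p = 0.0132), and its call ended without vehicle replicate 1 (0.15, adjusted p = 0.301) or 3-MB-PP1 replicate 1 (adjusted p = 0.177). JUN stood at 9.59 and 9.11 CPM, on 492 and 97 counts, and overlapped vehicle. ATF3, at 12.5 and 14.1 CPM, overlapped it too (-0.03, SE 0.11, adjusted p = 0.874). FOSL2 stood at 47.7 and 43.1 CPM (-0.14, SE 0.07, adjusted p = 0.153).

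The comparison of both drugs with 5-FU alone asked what 3-MB-PP1 did in cells already treated with 5-FU. JUN, FOSL2, JUND, FOSB, FOSL1 and JUNB fell, FOS rose, and ATF3 did not pass. Over all tested genes 15.7% were called higher and 17.3% lower, against 1 and 6 of the 8 members, and the median log2 fold change was -0.55 over the members and 0.00308 over all tested genes. This comparison shares the 5-FU libraries with that of 5-FU and vehicle.

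JUN fell most, to 14.0 and 13.8 CPM from 30.5 and 28.8 (-1.09, SE 0.10, adjusted p = 1.86e-08). FOSL2 fell to 71.5 and 70.0 CPM from 129 and 121 (-0.82, SE 0.07, adjusted p = 1.29e-09). Both genes still lay above all 4 libraries that had received no 5-FU. FOSL1 fell to 167 and 161 CPM (-0.46, SE 0.08, adjusted p = 5.10e-05), and JUND to 48.7 and 51.1 CPM (-0.72, SE 0.09, adjusted p = 9.59e-07). The JUND values lay within the range of the libraries given 3-MB-PP1 alone. FOSB stood at 2.21 and 2.78 CPM on 28 and 36 counts (-0.65, SE 0.24, adjusted p = 0.0431), and its call ended under DESeq2 (adjusted p = 0.222), limma-voom (0.0557) and without either library of 5-FU or of both drugs (adjusted p = 0.0679 to 0.255). JUNB stood at 58.9 and 53.4 CPM (-0.23, SE 0.08, adjusted p = 0.0304), with the call ended under DESeq2 (0.107) and without 5-FU replicate 1 (0.231) or replicate 2 of both drugs (0.260). FOS stood at 8.31 and 10.1 CPM, above 5-FU alone (0.60, SE 0.16, adjusted p = 0.00642), with the call ended under DESeq2 (0.0513) and without replicate 2 of both drugs (0.128).

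ATF3 did not pass in this comparison. It stood at 40.5 and 45.1 CPM after both drugs against 42.8 and 46.7 after 5-FU alone, ranges that overlapped (-0.07, SE 0.09, adjusted p = 0.599).

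**Figure D3:**
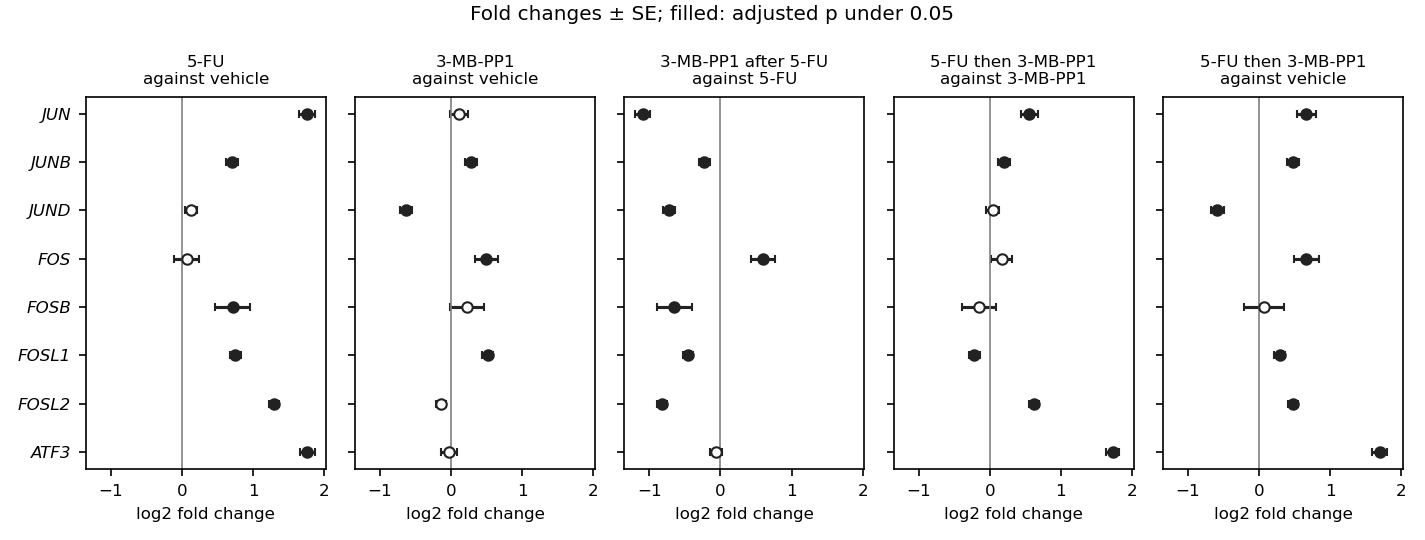
Log2 fold change ± SE of each AP-1 gene in 5 comparisons of treatments (edgeR), filled where the adjusted p was under 0.05. In the middle panel JUN (-1.09) and FOSL2 (-0.82) lie left of 0 and ATF3 (-0.07) lies within 1 SE of 0.

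Cells that received 5-FU and then 3-MB-PP1 were also compared with cells given 3-MB-PP1 alone. ATF3, FOSL2, JUN and JUNB were higher after both drugs, FOSL1 was lower, and FOS, FOSB and JUND did not pass. Of all tested genes, 19.7% were called higher and 19.9% lower, against 4 and 1 members. ATF3 (1.73, SE 0.10, adjusted p = 8.20e-14) led, followed by FOSL2 (0.62, SE 0.07) and JUN (0.56, SE 0.12, adjusted p = 0.000354). JUNB changed little (0.20, SE 0.08, adjusted p = 0.0461), and its call ended under DESeq2 (0.121), limma-voom (0.0515) and without 5-FU replicate 1 (0.0504), replicate 1 or 2 of 3-MB-PP1 (0.0575 and 0.135) or replicate 1 of both drugs (0.366). FOSL1 stood at 167 and 161 CPM against 205 and 174 with 3-MB-PP1 alone (-0.22, SE 0.08, adjusted p = 0.0228). That call ended under DESeq2 (0.259), without 3-MB-PP1 replicate 1 (-0.08, adjusted p = 0.495) and without either library of both drugs (0.0526 and 0.119).

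Cells that received both drugs differed from vehicle cells in 7 of the 8 members. ATF3 (1.70), FOS (0.67), JUN (0.66), JUNB (0.48), FOSL2 (0.48) and FOSL1 (0.29) rose, JUND fell (-0.59), and FOSB did not pass (0.07). Of all tested genes, 24.1% were called higher and 26.2% lower in this comparison, against 6 and 1 members. The FOS value had an SE of 0.17 and an adjusted p of 0.00218. The call of FOSL1 ended under DESeq2 (adjusted p = 0.0640) and without vehicle replicate 1 (0.14, adjusted p = 0.178).

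Whether 3-MB-PP1 acted differently with and without 5-FU was tested by the interaction term, the difference between its log2 effects in the 2 settings. FOSL1, JUN, FOSL2 and JUNB had a negative interaction, and FOSB, FOS, JUND and ATF3 did not pass. Of all tested genes, 2.11% had a positive and 2.04% a negative interaction, against 0 and 4 of the 8 members. No positive interaction of a member had an unadjusted p under 0.05, and DESeq2 and limma-voom called 0. The median was -0.59 over the members and 0.01 over all tested genes. For JUN the single-drug changes summed to 1.86, and the change with both drugs was 0.66, an interaction of -1.20 (SE 0.16, adjusted p = 3.61e-05). For FOSL1 they summed to 1.26 against 0.29 with both drugs, an interaction of -0.97 (SE 0.11, adjusted p = 2.25e-06). FOSL1 was higher with either drug than in vehicle, and lower with both drugs than with 5-FU alone. The rises with either drug are measured against the same 2 vehicle libraries. Without vehicle replicate 1 the FOSL1 interaction was -0.82. FOSL2 had an interaction of -0.68 (SE 0.10, adjusted p = 0.000112). JUNB had one of -0.50 (SE 0.11, adjusted p = 0.0111), and its call ended without vehicle replicate 1, 5-FU replicate 1, 3-MB-PP1 replicate 1 or replicate 2 of both drugs (adjusted p = 0.136, 0.0731, 0.0761 and 0.0659). FOSB had a negative estimate with a wide error (-0.87, SE 0.34, adjusted p = 0.169). Without 3-MB-PP1 replicate 1, the deepest library, the FOSB estimate was -0.38. FOSB had 156 counts in that library and 21 in 3-MB-PP1 replicate 2. ATF3 (-0.04, SE 0.14), JUND (-0.09, SE 0.12) and FOS (0.10, SE 0.23) had estimates within 1 SE of 0, and their adjusted p-values were 0.934, 0.758 and 0.873.

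**Figure D4:**
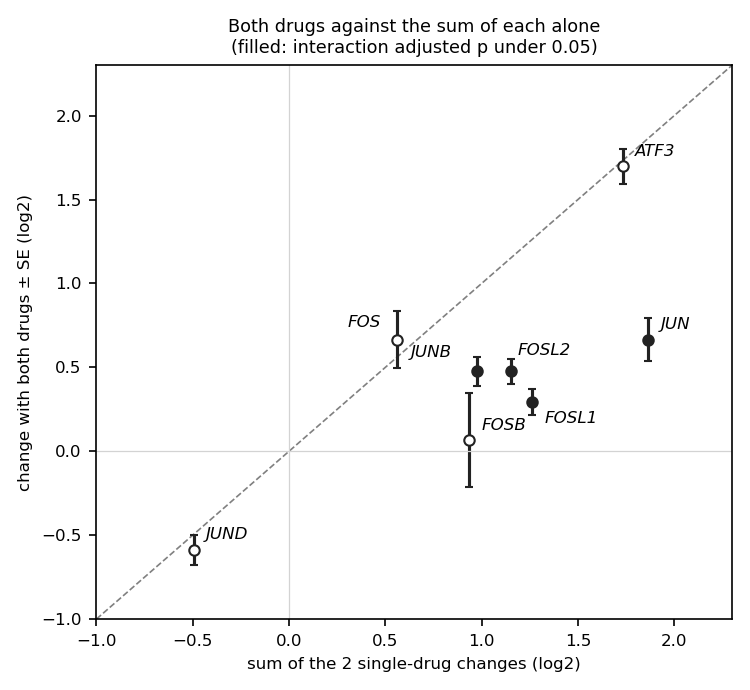
Change with both drugs against vehicle (vertical axis, log2 ± SE) plotted against the sum of the changes with each drug alone (horizontal axis, log2) for the 8 AP-1 genes, filled where the interaction passed, with a dashed line where the 2 are equal. JUN (1.86 against 0.66) and FOSL1 (1.26 against 0.29) lie below the line, and ATF3 (1.73 against 1.70) lies within 1 SE of it.

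Positions of the kept transcripts on hg19 were chromosome 1 from 59246463 to 59249785 for JUN, chromosome 19 from 12902310 to 12904125 for JUNB and from 18390563 to 18392432 for JUND, all 3 intronless genes. FOS lay on chromosome 14 from 75745481 to 75748937, FOSB on chromosome 19 from 45971253 to 45978437, FOSL1 on chromosome 11 from 65659692 to 65667997, FOSL2 on chromosome 2 from 28615779 to 28637516 and ATF3 on chromosome 1 from 212781970 to 212794119. No other gene in the tables overlapped a kept member, on either strand. ATF3 had 6 transcripts in the tables and FOSB had 2, which share most of their exons and therefore most of their reads. The 6 ATF3 transcripts, which begin at 3 places on hg19, gave log2 ratios of mean CPM of 1.70 to 1.77 for 5-FU over vehicle and 1.67 to 1.72 for both drugs over vehicle. The 2 FOSB transcripts gave 0.72 and 0.71 for 5-FU over vehicle.

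Of 24 listed basic leucine zipper genes that can pair with AP-1 proteins or bind similar sites, 20 were tested. With 5-FU 7 were called higher and 2 lower, against 21.3% and 22.7% of all tested genes, with a median of 0.02 against 0.00305. DESeq2 called 2 higher and 1 lower. MAFF, a small MAF protein, rose (1.33), as did BATF2 (1.76) and BATF3 (0.63), while CREB1, the cAMP response factor, fell (-0.61). BATF2 stood at only 0.311 to 1.32 CPM in these 2 groups, and whether DESeq2 also called it is not given here. BATF3 was not called by DESeq2 (adjusted p = 0.163). With 3-MB-PP1 alone 3 were called higher and 4 lower, against 11.6% and 16.9% of all tested genes, CREM (0.53) and MAFF (0.51) being highest of those called and ATF5 (-0.37) lowest. The MAFF call ended under DESeq2 (adjusted p = 0.201). With 3-MB-PP1 after 5-FU 2 were higher and 4 lower, against 15.7% and 17.3% of all tested genes, MAFK falling most (-0.52). For both 3-MB-PP1 comparisons the counts lay near those of all genes. MAFF was the 1 gene of this list with an interaction (-0.72, adjusted p = 0.0257, under DESeq2 0.366). Of all tested genes 2.11% had a positive interaction and 2.04% a negative one. MAFF stood at 9.02 and 14.8 CPM in vehicle, 29.5 and 30.8 after 5-FU, 18.0 and 15.0 after 3-MB-PP1 and 26.9 and 25.2 after both.

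Of 26 listed kinases upstream of AP-1, 24 were tested. With 5-FU 9 were called higher and 7 lower, against 21.3% and 22.7% of all tested genes. With 3-MB-PP1 alone the counts were 3 and 7, against 11.6% and 16.9%, and with 3-MB-PP1 after 5-FU they were 5 and 6, against 15.7% and 17.3%. Nothing particular to the list is read from these counts. MAP2K3, an activator of p38, rose with 5-FU (1.21), with 3-MB-PP1 alone (0.79) and with 3-MB-PP1 after 5-FU (0.45). MAP2K7, an activator of JNK, fell with 3-MB-PP1 alone (-0.57) and after 5-FU (-0.55). By edgeR 0 of the 24 had an interaction (1 at an unadjusted p under 0.05), and DESeq2 and limma-voom also called 0. Of all tested genes 2.11% had a positive and 2.04% a negative interaction, so that 0 of 24 lies near the share of all genes. Transcript levels say nothing of kinase activity, which was not measured. Of the 6 tested genes of SRF, the factor that drives FOS, with its ternary complex factors and cofactors, ELK3 (0.55) and MKL1 (0.34) rose and MKL2 (-0.46) and ELK4 (-0.37) fell with 5-FU, and SRF (0.13) and ELK1 (0.06) did not pass. Of all tested genes 21.3% were called higher and 22.7% lower with 5-FU. With 3-MB-PP1 alone MKL2 fell (-0.23), and with 3-MB-PP1 after 5-FU MKL1 fell (-0.46). In these 2 comparisons 16.9% and 17.3% of all tested genes were called lower. The MKL2 call with 3-MB-PP1 alone ended under DESeq2 (adjusted p = 0.216).

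Of 10 integrated stress genes listed and tested around ATF3, 0 were called higher and 3 lower with 3-MB-PP1 alone, against 11.6% and 16.9% of all tested genes, and 7 did not pass. By edgeR 1 of the 10 was higher at an unadjusted p under 0.05, and DESeq2 and limma-voom called 0 higher. With 3-MB-PP1 after 5-FU 2 were higher (EIF2AK1, 0.20, and EIF2AK4, 0.17, both kinases of the initiation factor eIF2), 3 lower and 5 not called, against 15.7% and 17.3% of all tested genes. ATF4, the factor that induces ATF3 in that response, stood at 286 and 302 CPM in vehicle, 233 and 247 after 5-FU, 138 and 135 after 3-MB-PP1 and 103 and 110 after both drugs. It fell with 5-FU (-0.30), with 3-MB-PP1 alone (-1.11) and with 3-MB-PP1 after 5-FU (-1.17). These are transcript levels, and ATF4 protein was not measured. DDIT3, or CHOP, fell with 3-MB-PP1 alone (-0.56) and after 5-FU (-0.52), and TRIB3 did so too (-0.51 and -0.45). With 5-FU DDIT3 (-0.10) and TRIB3 (0.05) did not pass. With 5-FU 2 of the 10 were called higher and 4 lower, against 21.3% and 22.7% of all tested genes, PPP1R15A, or GADD34, rising most (1.14).

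Most tested textbook AP-1 target genes rose with 5-FU. Of 25 listed, 16 were tested; 13 were called higher with 5-FU and 1 lower, with a median log2 fold change of 0.76. Of all tested genes 21.3% were higher and 22.7% lower, with a median of 0.00305. Under spike-in scaling 3 targets were called higher and 0 lower by edgeR, with 7 and 0 at an unadjusted p under 0.05. The list includes genes that p53, NF-kB or NRF2 also drive. HMOX1, the heme oxygenase (2.67), IL8, the chemokine CXCL8 (1.99), and PLAU, the urokinase protease (1.44), rose with 5-FU. IL8 was low throughout, at 0.389 and 0.913 CPM in vehicle and 1.91 and 3.30 after 5-FU. VIM, the intermediate filament vimentin, was the gene that fell (-1.09). With 3-MB-PP1 alone MMP14 (0.65), ITGA2 (0.56) and CCND1 (0.32) rose and VEGFA (-0.47) and HMOX1 (-0.23) fell, 3 and 2 of 16 against 11.6% and 16.9% of all tested genes. The MMP14 call ended under DESeq2 (adjusted p = 0.144), and the HMOX1 call ended under DESeq2 (0.177) and limma-voom (0.0579).

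With 3-MB-PP1 after 5-FU, 0 of the 16 targets were called higher and 6 lower by edgeR, with a median of -0.09 (1 was higher at an unadjusted p under 0.05, and DESeq2 and limma-voom called 0 higher). Of all tested genes 15.7% were higher and 17.3% lower. Under spike-in scaling 1 target was called lower. IL8 (-1.81), HMOX1 (-1.68) and VEGFA (-1.03) were among those that fell. IL8 rested on low levels, 0.396 and 1.08 CPM after both drugs against 1.91 and 3.30 after 5-FU. PLAU (-0.69) and its receptor PLAUR (-0.76) fell too, and PLAU stood at 30.5 and 33.1 CPM in vehicle, 89.5 and 83.6 after 5-FU, 35.7 and 36.4 after 3-MB-PP1 and 53.5 and 53.9 after both drugs. A negative interaction was called for 7 of the 16 and a positive one for 0 by edgeR (0 at an unadjusted p under 0.05, and 0 by DESeq2 and limma-voom), with a list median of -0.36 against 0.01 over all tested genes, of which 2.04% had a negative one. DESeq2 called 6 negative and spike-in scaling 0, with 2 negative there at an unadjusted p under 0.05. HMOX1 (-1.45), PLAUR (-1.03) and PLAU (-0.86) were among these. HBEGF, an EGF receptor ligand, rose with 5-FU (1.34) and was higher after both drugs than after 3-MB-PP1 alone (1.31), with an interaction of -0.03 that did not pass.

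**Figure D5:**
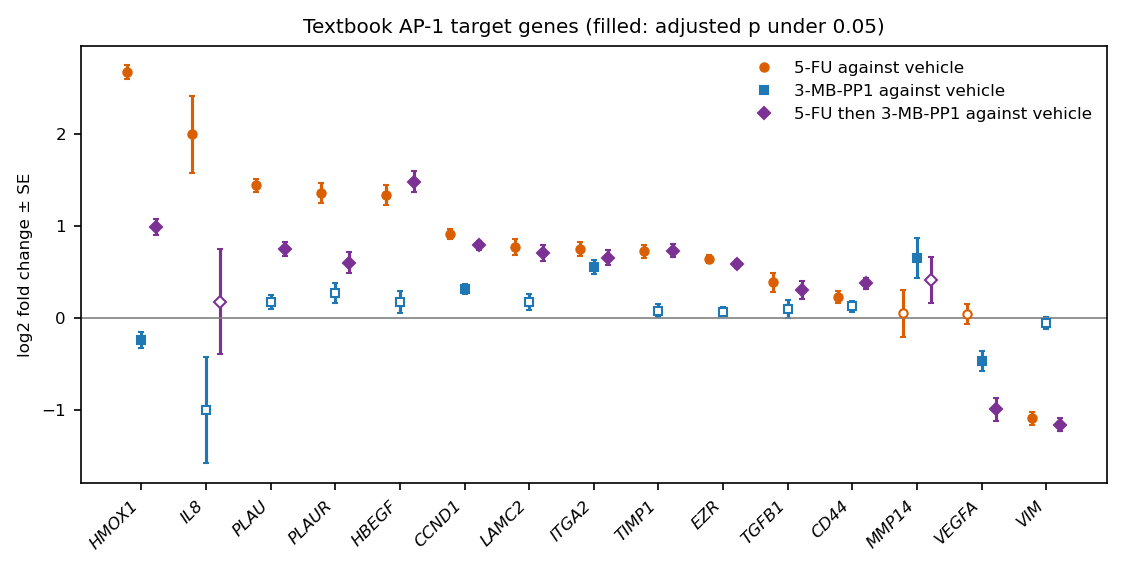
Log2 fold change ± SE against vehicle of 15 of the 16 tested textbook AP-1 targets with 5-FU (circles), 3-MB-PP1 (squares) and both drugs (diamonds), filled where the adjusted p was under 0.05, genes in order of the 5-FU change. HMOX1 (2.67) and PLAU (1.44) have diamonds below their circles, and HBEGF (1.34 and 1.48) does not.

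Genes with a pattern most like a member over the 8 libraries were found by the root mean square difference of log2 CPM after each gene's mean was removed, among 10190 other genes with at least 10 CPM on average. Pearson's r over the same 8 libraries is given as a description. For JUN these included KCNN4, a calcium-activated potassium channel (difference 0.16, r = 0.99), and PLAU (0.16, r = 0.99). KCNN4 was also closest to FOSL2 (0.08, r = 0.99), followed by SFN, or 14-3-3 sigma (0.10, r = 0.98). KCNN4 stood at 26.6 ± 2.25 CPM (SD, n = 2) in vehicle, 68.2 ± 4.43 after 5-FU, 25.5 ± 0.59 after 3-MB-PP1 and 41.4 ± 2.61 after both drugs. FOSL1 was closest to GEM, a small GTPase (0.10, r = 0.94), and ID2, an inhibitor of basic helix-loop-helix factors (0.12, r = 0.92). JUNB was closest to ITGB4, the integrin beta 4 (0.05, r = 0.98), FOS to MTHFD2L (0.05, r = 0.99), JUND to RPUSD1 (0.08, r = 0.97) and FOSB to SURF2 (0.16, r = 0.91). ATF3 was closest to LOC100507463, CYFIP2 and TAP1, of which TAP1, a peptide transporter of antigen presentation, stood at 41.4 ± 2.55 CPM in vehicle, 121 ± 0.229 after 5-FU, 39.2 ± 0.280 after 3-MB-PP1 and 125 ± 4.53 after both drugs.

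Scaling to the ERCC spike-ins, RNAs added to each sample, ended 30 of the 33 calls on members. JUN and ATF3 with 5-FU (1.87 and 1.86, adjusted p = 0.0187 and 0.0214) and ATF3 with both drugs (1.69, adjusted p = 0.0333) still passed, and no called member changed direction. The spike-in share differed up to 1.76-fold between replicates, and 0 genes passed for the interaction under that scaling by edgeR, with 4 positive and 71 negative at an unadjusted p under 0.05.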

How the data were processed

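Total RNA of HCT-116 cells was sequenced in 8 libraries. Reads were aligned with TopHat2 2.0.13 to hg19, per the submitters' processing notes; the counting program, strand setting and annotation release were not given in the sources used here. The deposited tables hold a whole-number read count per RefSeq transcript, not normalized by the authors, and RPKM, which the authors scaled by transcript length and library total. Reads in shared exons count for each transcript of a gene.

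Of 41643 transcripts, 6260 had no symbol, and 5902 of these were named by accession from the RefSeq table of GRCh38.p14. A symbol with several transcripts was represented by its most highly counted one. Counts were tested with edgeR 4.0.16 in R 4.3.3 (filterByExpr, TMM, quasi-likelihood F tests, a single model of 4 groups with 4 residual degrees of freedom), with two-sided p-values adjusted by Benjamini-Hochberg over 15670 genes in each of 6 comparisons; SE were derived from F. The common biological coefficient of variation was 0.0423. Counts were simulated for the 5-FU comparison over 15670 genes, with 40 genes at each planted log2 change and a coefficient of 0.05. The method called 72.5% at -0.5, 85% at 0.5, 92.5% at -1 and 100% at 1 and at 2. It also called 0.0655% of the 15256 unchanged genes that passed the filter. The simulation changed far fewer genes than the 6901 called with 5-FU and gave all genes the same coefficient. Its rates may therefore differ from those in the measured data. Alternatives used DESeq2 1.42.0, limma 3.58.1 (voom), other scalings, filters and transcripts, a replicate block, and each library left out.

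The members, lists and rule for naming genes were chosen with earlier results of these data known. Named were all 8 members, up to 4 called genes by size per list and comparison, and the 3 genes closest in pattern to a member; further list genes (PLAUR, PLAU in the comparison after 5-FU, SRF, ELK1, VIM, HMOX1, EIF2AK4, DDIT3, TRIB3, ATF4 and HBEGF where they did not rank) were added after their values were seen. Some genes that the rule names are not reported here, though counts and medians of the lists include them. Sequences come from RefSeq on GRCh38.p14, and no coordinate was converted between builds.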

Additional observations from a re-analysis of the deposited data

Results flagged for a closer look

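Under TMM, the effect of 3-MB-PP1 on 4 AP-1 genes differed between cells with and without 5-FU, by the interaction term of the edgeR model. The values on the log2 scale were -1.20 for JUN, -0.97 for FOSL1, -0.68 for FOSL2 and -0.50 for JUNB, with adjusted p-values of 3.61e-05, 2.25e-06, 0.000112 and 0.0111. Under spike-in scaling none of the 4 passed in edgeR (-1.48, -1.23, -0.96 and -0.79, adjusted p = 0.997 for each), and 0 genes had an interaction. With each library left out in turn the highest adjusted p was 0.00148 for JUN, 0.000122 for FOSL1, 0.00586 for FOSL2 and 0.136 for JUNB. The 3-MB-PP1 replicate 1 library was the deepest of the 8; without it the values were -1.15 for JUN, -0.83 for FOSL1, -0.58 for FOSL2 and -0.44 for JUNB.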

How the results depend on the processing

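Of 33 calls on members, 23 held under all 14 alternatives other than spike-in scaling, and no call reversed under any alternative. DESeq2 size factors in edgeR, the absence of a filter, the longest transcript and the replicate block left all 48 member results on the same side of the threshold. The replicate block called 6941 genes with 5-FU against 6901 without it. The labels do not say what a replicate number marks. Deviations from the group mean in same-numbered libraries correlated at -0.14 to 0.13 between groups. With 2 libraries a group these values cannot settle whether the samples were paired. Spike-in scaling called 244 genes with 5-FU (2 members higher), 113 with 3-MB-PP1 (0 members higher and 0 lower), 52 with 3-MB-PP1 after 5-FU (0 and 0), 140 for both drugs against 3-MB-PP1 (0 and 0), 429 with both drugs (1 higher, 0 lower) and 0 for the interaction (0 members lower), against 6901, 4460, 5165, 6204, 7884 and 651. It shifted the median of all genes by 0.12, 0.20, -0.12, -0.19, 0.0033 and -0.32 from that under TMM in the same order, and relative to the median under spike-in scaling no called member changed direction. DESeq2 called 2673 genes with 3-MB-PP1, 3375 with 3-MB-PP1 after 5-FU (0 members higher) and 378 for the interaction, and 0 members lower for both drugs against 3-MB-PP1. Without a filter 888 genes had an interaction. With each library left out, interaction calls ranged from 241 to 911 genes and calls of 3-MB-PP1 after 5-FU from 3360 to 5355 (members higher 0 to 1). Members higher with 3-MB-PP1 ranged from 1 to 3, and members lower for both drugs against 3-MB-PP1 from 0 to 1. The cause of these changes was not tested. With a library left out, its group is represented by a lone sample assumed to vary like the other groups. FOSB, at 21 to 156 counts per library, and FOS, at 69 to 390, were the least deeply covered members.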
